A study of Canis lupus familiaris with 12 samples.

Results

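Claudin-2 (CLDN2), occludin (OCLN), cingulin (CGN) and beta-catenin (CTNNB1) are structural genes of the junctions that hold epithelial cells together. They are followed here in a dog kidney cell line kept in acid medium. The members were all gene probes of the array whose identifier is a RefSeq transcript of 1 of these 4 dog genes, which gave 4 of the 944 genes that could be named, and 9 of the 43603 non-control probes. CTNNB1 had 4 probes, CLDN2 and CGN had 2 each, and OCLN had 1, which was printed as 5 spots on every array. Of the 9, 1 CTNNB1 probe was saturated on most arrays and is described apart, which leaves 8 unsaturated probes.

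Tight junctions seal the space between neighbouring epithelial cells near their apical edge and set which ions may pass between them. Claudins form the strands of the seal, and claudin-2 forms channels for small cations and water that make an epithelium leakier. Occludin is another membrane protein of the strands, and cingulin lies on their cytoplasmic side, where it links them to the cytoskeleton. Just below, in the adherens junction, beta-catenin ties cadherins to the actin filaments. It also serves in the nucleus as a partner of TCF and LEF transcription factors in Wnt signalling.

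The cells were of the line MDCK (Madin-Darby canine kidney), tubule cells of the dog and a common model of junctions, obtained from the American Type Culture Collection. Both groups were grown to confluence with fetal bovine serum and moved to serum-free medium at pH 7.4 for the last 24 h before the experiment. They were then held for 24 h either at pH 7.0, made by lowering the bicarbonate of the medium, or at pH 7.4 as control. There were 3 biological replicates, extracted on different dates, each with 1 RNA per pH, and each of the 6 RNAs was run on 2 one-colour Agilent arrays, which made 12 arrays. Arrays are numbered 1 to 6 in each group, with arrays 1 and 2 from biological replicate 1, arrays 3 and 4 from biological replicate 2, and arrays 5 and 6 from biological replicate 3.

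A level is given as log2 of the processed signal minus the 75th percentile of its array, so that 0 is the level of a rather bright probe. Levels of different probes cannot be set against each other. A change is the log2 difference, pH 7.0 minus pH 7.4, within a biological replicate, with the standard error of a limma fit over all 27136 tested probes (n = 3 pairs of RNAs). A probe was tested if at least 6 of the 12 arrays had it well above background by the scanner software, and all 9 member probes met this. Bulk RNA cannot tell more transcript per cell from more cells that carry it.

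The share of probes well above background ran from 49.4% to 70.4% over the arrays, with the 4 arrays of biological replicate 2 lowest, at 49.4% to 54.1%. The duplicate arrays of an RNA had differences with an SD of 0.40 to 0.56 over the tested probes, apart from the pH 7.4 RNA of biological replicate 1, at 0.71. On that RNA array 1 was more than 1 log2 unit below array 2 for 6.90% of probes and above it by as much for 7.97%, while on the other 5 RNAs these shares ran from 0.977% to 3.66%. None of 10 markers of tubule epithelium, CDH1 and KRT8 among them, could be named on the array, so the labelled cell type was not checked through them. Of the markers of tubule segments, CUBN was well above background on all 6 arrays of each group, with a change of 0.16 ± 0.36. AQP1 was so on 4 arrays at pH 7.0 and 1 at pH 7.4, and UMOD and SLC4A1 on 0. Of 10 fibroblast markers 4 were named and 3 of them tested, of 8 leukocyte markers 2 and 1, and of 5 endothelial markers 2 and 1. Among the fibroblast markers, the collagens COL1A1 and COL1A2 were well above background on all 12 arrays, with changes of 0.43 ± 0.26 and -0.21 ± 0.23, PDGFRB was so on 10, at -0.014 ± 0.25, and DCN on 1. Of the endothelial markers VWF was well above background on all 12 arrays, at 0.17 ± 0.31, and KDR on 3. Of the leukocyte markers CD8A was so on 7 arrays, at -0.0093 ± 0.23, and CD4 on 5. Their part in the results was not tested.

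All 8 unsaturated probes of the 4 genes had a higher mean at pH 7.0, by 0.24 to 1.31 on the log2 scale, beside 51.3% of all tested probes with a change above 0. None passed the test over all probes. The median change of these 8 probes was 0.83, beside 0.012 over all tested probes. That median gives more weight to genes with more probes. By the brightest unsaturated probe of each gene, changes were 1.15 for CLDN2, 0.67 for CTNNB1, 0.26 for OCLN and 0.24 for CGN. The median over 577 named genes by the same rule was 0.067. OCLN and CGN A_11_P050111 had the smallest changes, and the other CGN probe lay among those of CTNNB1 and CLDN2. At an adjusted p under 0.05, limma called 0 of the 9 member probes, against a background of 0% of all tested probes in either direction. At an unadjusted p under 0.05, 6 of the 8 unsaturated probes were higher, against a background of 6.48%, and 0 were lower, against 5.77%. Probes of a gene are read from the same RNAs, so they are not separate units. By the brightest unsaturated probe of each gene, CLDN2 and CTNNB1 were under 0.05, and OCLN and CGN were not. The background by that rule was 10.9% of named genes higher and 3.81% lower. Without pairing by biological replicate, both CLDN2 probes and CGN A_11_P0000027517 were no longer under 0.05. The direction was the same in all 3 biological replicates for 7 of the 8, all higher, against 18.0% of tested probes higher and 15.7% lower throughout. The genes were chosen with earlier results of these data known, so these counts describe the members and do not test them.

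**Figure D1:**
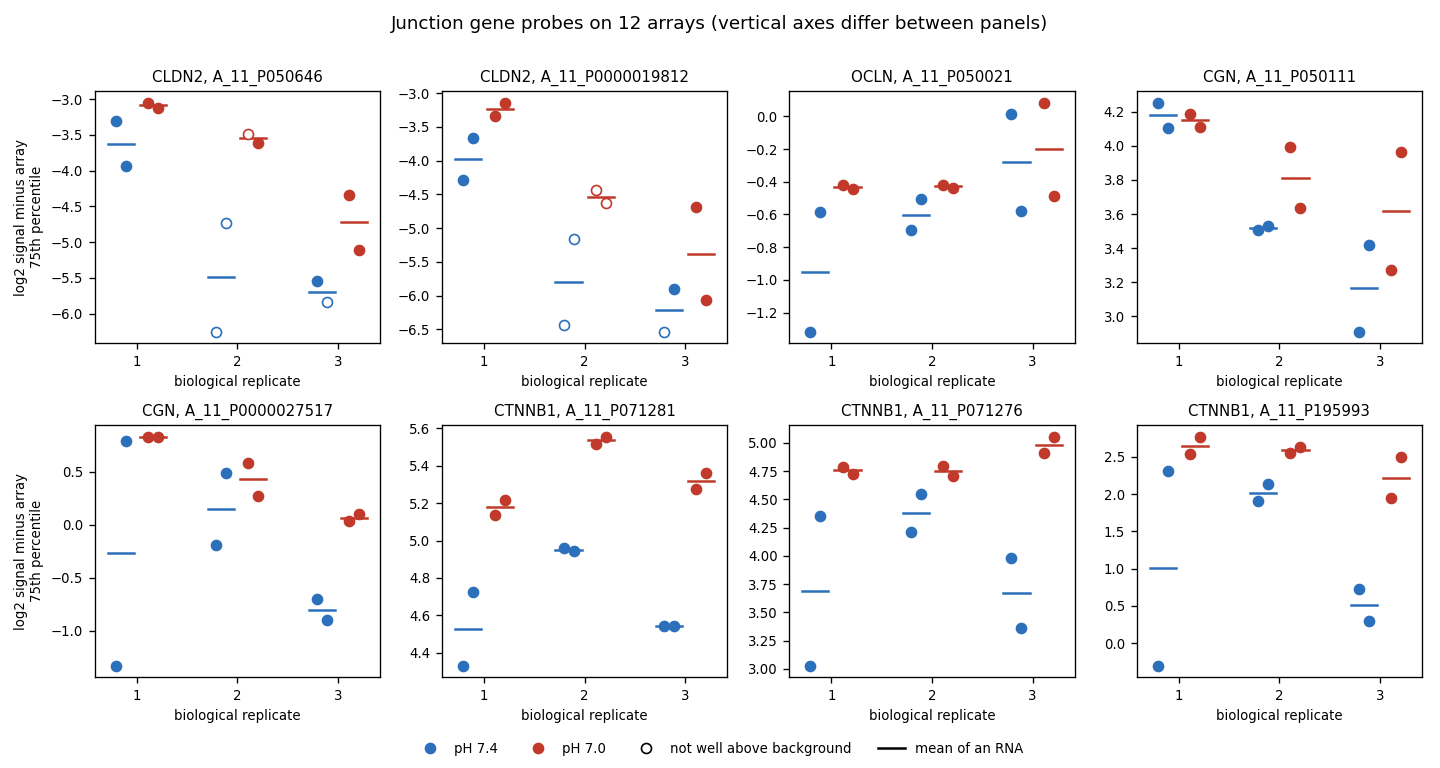
Levels of the 8 unsaturated probes on the 12 arrays, as log2 signal minus the array's 75th percentile, by biological replicate. Each point is an array, each line the mean of an RNA, and open points were not well above background. The pH 7.0 arrays of CTNNB1 A_11_P071281 all lie above the pH 7.4 arrays, while most CLDN2 points of biological replicate 2 are open. The share of tested probes whose arrays lie apart like this was not counted.

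CLDN2 was near the limit of detection. On A_11_P050646, its brighter probe, the levels of the 3 pH 7.0 RNAs were -3.09, -3.55 and -4.72, and those of the 3 pH 7.4 RNAs -3.63, -5.49 and -5.69, in the order of the biological replicates. The acid RNA was above its own control in each biological replicate, but the groups overlapped, since the acid RNA of biological replicate 3 lay below the control RNA of biological replicate 1. At pH 7.0 it was well above background on 5 of its 6 arrays, and at pH 7.4 on 3. Its change was 1.15 ± 0.29 and did not pass (limma adjusted p = 0.174). The standard error covers the spread of these processed signals and not the choice of background. Under the normexp settings given with the other CLDN2 values, the change was -0.33 or 0.35. Those settings also start from the median signal and add a constant to it after background correction, which the main fit did not. The distance from 1.15 is therefore not one of background alone, and the part of each was not tested.

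The other CLDN2 probe, A_11_P0000019812, gave a similar estimate. Its levels were -3.24, -4.53 and -5.38 at pH 7.0 and -3.98, -5.79 and -6.22 at pH 7.4. Again each acid RNA was above its control while the groups overlapped. The change was 0.94 ± 0.23 (limma adjusted p = 0.165). Here 4 of the acid arrays and 3 of the control arrays were well above background. Biological replicate 1 was the only one in which both CLDN2 probes were well above background on all 4 arrays. There the changes were 0.54 and 0.73.

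Much of the CLDN2 estimate on A_11_P050646 came from biological replicate 2, with a change of 1.95, against 0.54 and 0.97 in biological replicates 1 and 3. In biological replicate 2 neither pH 7.4 array was well above background for either CLDN2 probe. The processed signals of A_11_P050646 there were 44.8 and 33.6 at pH 7.0 and 5.41 and 28.6 at pH 7.4. The raw spots were closer together: minus the local background they stood at 92.5 and 91.0 at pH 7.0 and at 66.5 and 89.0 at pH 7.4. Over all gene spots, the 1st percentile of the raw signal minus local background was 39.5 to 57.0 on those 4 arrays, beside -10.0 to 5.00 on the other 8. The part of this offset in the CLDN2 change was not tested beyond the background settings given next.

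The direction of CLDN2 reversed in a single background setting, where only biological replicate 2 was lower at pH 7.0. With normexp correction on the local backgrounds as given, both probes were lower at pH 7.0, at -0.33 and -0.40, while the median of all tested probes moved to -0.19. Biological replicate 2 gave -1.54 and -1.71 in that setting, and biological replicates 1 and 3 stayed between 0.13 and 0.41. With 8 spots on pH 7.4 array 3 and 3 on pH 7.4 array 4 repaired, which lay more than 50 units below their local background, the 2 CLDN2 changes were 0.35 and 0.25. Biological replicate 2 then gave 0.48 and 0.23. Both settings add the normexp offset of 50 to the median signal after its background correction, so their distance from the main changes is not one of background alone. Without biological replicate 1, CLDN2 A_11_P050646 rose, at 1.46 ± 0.31 (limma adjusted p = 0.0276), and without biological replicate 2 it stood at 0.76 ± 0.36 (adjusted p = 0.375). Of the control arrays left in the first of these fits, only array 5 had the probe well above background.

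The change of OCLN was small, and its 95% interval included 0. Its levels were -0.43, -0.43 and -0.20 at pH 7.0 and -0.95, -0.60 and -0.28 at pH 7.4. Each acid RNA was above its control, and the groups overlapped. The change was 0.26 ± 0.23, with a 95% interval of -0.25 to 0.76 (limma adjusted p = 0.704). Changes in the 3 biological replicates were 0.52, 0.17 and 0.078.

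The 5 OCLN spots give a view of the error within an array. Their SD was 0.029 to 0.16 on the log2 scale, with a median of 0.072. Duplicate arrays of an RNA differed unevenly. At pH 7.0 the first array minus the second was 0.026, 0.016 and 0.57 in biological replicates 1, 2 and 3, and at pH 7.4 it was -0.73, -0.19 and 0.59. Of the 6 RNAs, 4 thus had duplicates further apart than the highest SD of the spots. That SD is of single spots, while the value of an array is the mean of 5, so these are unlike measures. The largest change of OCLN, 0.52 in biological replicate 1, was 0.15 against array 2 alone, and over the 3 biological replicates the change without pH 7.4 array 1 was 0.13 ± 0.20.

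CGN had probes that differed in size. On A_11_P050111, the brighter of them, levels were 4.15, 3.81 and 3.62 at pH 7.0 and 4.18, 3.52 and 3.17 at pH 7.4. The groups overlapped widely, and biological replicate 1 showed no increase, with changes of -0.030, 0.30 and 0.45. The overall change was 0.24 ± 0.23 (limma adjusted p = 0.725), with a 95% interval of -0.27 to 0.75. On A_11_P0000027517 levels were 0.83, 0.43 and 0.066 at pH 7.0 and -0.27, 0.15 and -0.80 at pH 7.4. The change there was 0.75 ± 0.24 (limma adjusted p = 0.263), with 1.10, 0.28 and 0.87 in the 3 biological replicates. On pH 7.4 array 1 this probe stood at -1.33, and on array 2, of the same RNA, at 0.79, close to the acid RNA at 0.83. Without pH 7.4 array 1 the change was 0.39 ± 0.23.

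CTNNB1 was bright, and its 3 unsaturated probes separated the RNAs of the media. On A_11_P071281 the processed signal was 19290 to 31300 at pH 7.0, with a median of 24019, and 11937 to 24952 at pH 7.4, with a median of 15507. Levels were 5.18, 5.54 and 5.32 at pH 7.0 and 4.53, 4.95 and 4.54 at pH 7.4. The RNAs did not overlap, against 4.48% of tested probes with the acid RNAs above and 3.61% with them below. The 12 arrays, duplicates of these RNAs, did not overlap either, and how many tested probes share this was not counted. The change was 0.67 ± 0.22, a 1.59-fold difference with a 95% interval of 1.13 to 2.23, and it did not pass (limma adjusted p = 0.264). It was also the most even of the 8 probes, with 0.65, 0.58 and 0.78 in the 3 biological replicates. Arrays of the same number in each group, set against each other, differed by 0.50 to 0.82. These are duplicate arrays of 3 pairs of RNAs, matched by number alone, and not separate replicates.

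The dimmer CTNNB1 probes gave larger changes. On A_11_P071276 levels were 4.76, 4.75 and 4.98 at pH 7.0 and 3.69, 4.38 and 3.67 at pH 7.4, again without overlap of RNAs or arrays, and the change was 0.92 ± 0.25 (limma adjusted p = 0.209). On A_11_P195993 they were 2.65, 2.59 and 2.22 at pH 7.0 and 1.00, 2.02 and 0.51 at pH 7.4. The RNAs were apart, the arrays were not, and the change of 1.31 ± 0.27 was the largest of the members (limma adjusted p = 0.127). Thus 3 of the 8 unsaturated probes, all of CTNNB1, had no overlap of RNAs, against 4.48% of tested probes with the acid RNAs above and 3.61% with them below. The share of tested probes without overlap of arrays was not counted.

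**Figure D2:**
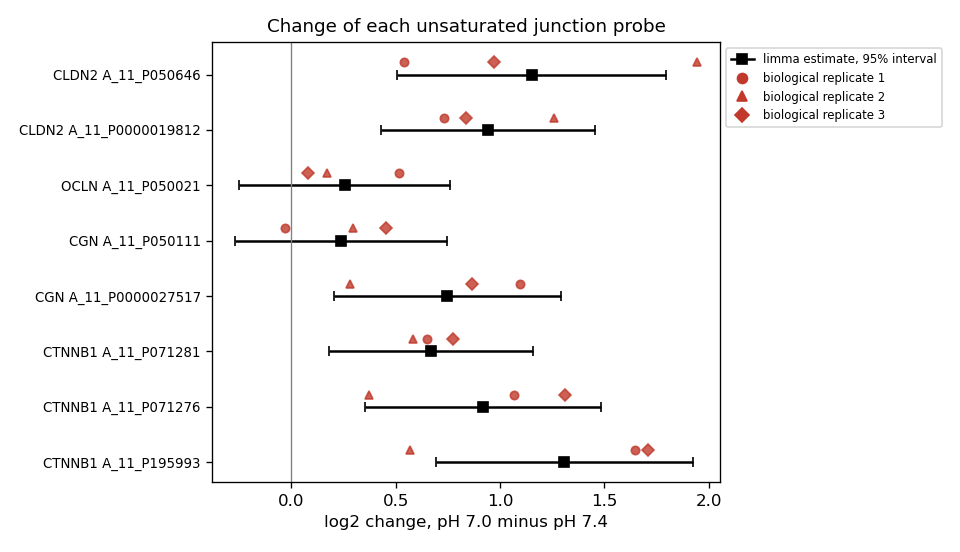
Log2 change, pH 7.0 minus pH 7.4, of the 8 unsaturated probes. Squares are limma estimates with 95% intervals, and red points the 3 biological replicates. The intervals of OCLN and of CGN A_11_P050111 include 0. The biological replicates of CTNNB1 A_11_P071281 lie together, from 0.58 to 0.78, and those of CLDN2 A_11_P050646 spread from 0.54 to 1.95.

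The changes of CTNNB1 were uneven between biological replicates on the dimmer probes. On A_11_P195993 they were 1.65, 0.57 and 1.71, and on A_11_P071276 they were 1.07, 0.37 and 1.31. In biological replicate 2 the 3 probes were close, at 0.58, 0.37 and 0.57, and in biological replicates 1 and 3 they were not. Without biological replicate 2, A_11_P195993 rose by 1.68 ± 0.36 (limma adjusted p = 0.000761) and A_11_P071276 rose by 1.19 ± 0.36 (limma adjusted p = 0.0469). With 4 RNAs left, limma gave these probes the same standard error, pooled over all probes. A_11_P195993 also passed when probes dim on any array were left out (limma adjusted p = 0.0470) and with an intensity trend in the prior (0.0432), and A_11_P071281 passed when the 12 arrays were fitted with the RNA as a random block (limma adjusted p = 0.0331).

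Probes of a gene are read from the same RNA, so the log2 difference between them shows where they moved unequally. For CTNNB1, A_11_P195993 minus A_11_P071281 was -3.33 to -2.45 on the 6 arrays at pH 7.0. At pH 7.4 it was -4.63 on array 1, -2.42 on array 2, -3.05 and -2.81 on arrays 3 and 4, and -3.81 and -4.25 on arrays 5 and 6. Array 1 and arrays 5 and 6 of the control group thus lay below every acid array, and the other 3 control arrays lay among or above them. For CGN, A_11_P0000027517 minus A_11_P050111 was -3.87 to -3.24 at pH 7.0. At pH 7.4 it was -5.58 on array 1 and -4.32 on array 6, and between -3.69 and -3.05 on the other 4.

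Within biological replicate 1 these gaps differed between 2 arrays of 1 control RNA, which holds the medium and the extract fixed. On that RNA, array 1 minus array 2 was -2.60 on CTNNB1 A_11_P195993, -1.32 on A_11_P071276, -0.39 on A_11_P071281 and -2.12 on CGN A_11_P0000027517, but 0.15 on CGN A_11_P050111. Against array 2 alone the changes of biological replicate 1 were 0.35, 0.41 and 0.45 on the 3 CTNNB1 probes in that order, and 0.036 on CGN A_11_P0000027517. Without pH 7.4 array 1 the changes of CTNNB1 were 0.87 ± 0.28 on A_11_P195993, 0.70 ± 0.24 on A_11_P071276 and 0.60 ± 0.20 on A_11_P071281 (limma adjusted p from 0.215 to 0.250). Over 212 named genes with at least 2 unsaturated tested probes, the gap between the brightest pair differed from its own median by a median of 0.32 on pH 7.4 array 1, and by 0.13 to 0.33 on the 12 arrays together. With the sign kept, dimmer probe minus brighter, the median deviation was -0.15 on pH 7.4 array 1, the lowest of the 12. On the other arrays it ran from -0.044 to 0.16, the last on pH 7.0 array 5. The part of RNA quality and of labelling in these gaps was not tested.

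**Figure D3:**
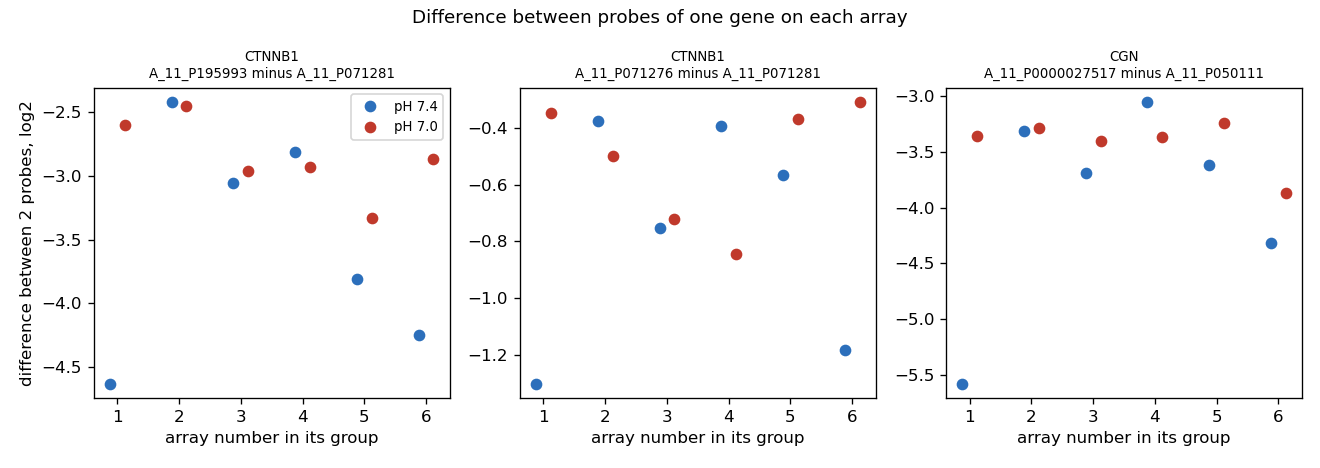
Log2 difference between probes of one gene on each array, for CTNNB1 (left and middle) and CGN (right), with the array number in its group on the horizontal axis. Red points are pH 7.0 and blue points pH 7.4. On pH 7.4 array 1 the gaps were the lowest of all 12 arrays, at -4.63, -1.30 and -5.58, and array 6 of the same group came next in each panel.

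The saturated CTNNB1 probe, A_11_P000002090, carried little information. All 6 acid arrays and 3 of the 6 control arrays were saturated, so its acid level is only a lower bound and no fold is given. Processed signals were 70521 to 87343 at pH 7.0 and 52389 to 85767 at pH 7.4. These signals are not scaled between arrays, so they give no order of the groups.

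Normexp on local backgrounds as given also moved OCLN to 0.13 and CGN A_11_P050111 to 0.41. Across the 12 settings of the fit, the scaling, the background and the filter that could be run on OCLN, it stayed between 0.13 and 0.26, and CGN A_11_P050111 lay between 0.20 and 0.41 over 13. CTNNB1 A_11_P071281 stayed between 0.57 and 0.85 over the same settings, and A_11_P195993 between 1.28 and 1.44. Those 4 probes, CTNNB1 A_11_P071276 and CGN A_11_P0000027517 were higher at pH 7.0 in every setting tried, with single biological replicates and single arrays left out as well. Settings of the fit and of the filter on dim probes leave the estimates unchanged, so the direction was fixed in those.

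**Figure D4:**
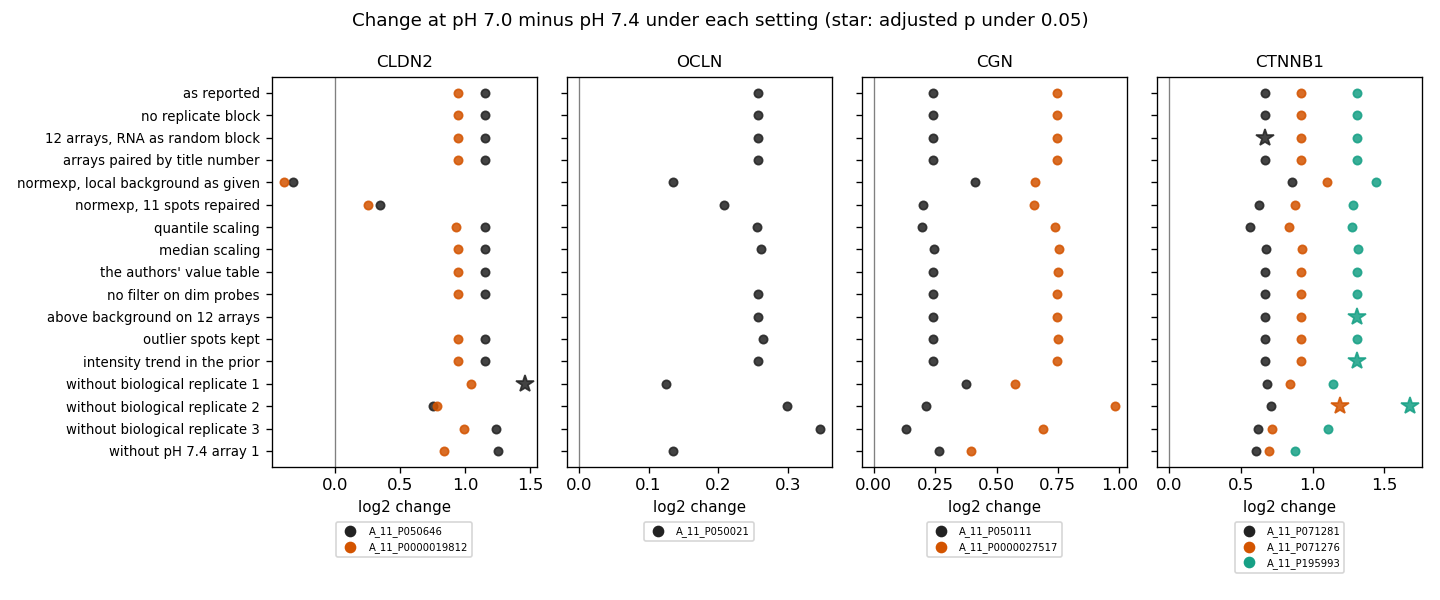
Log2 change, pH 7.0 minus pH 7.4, of the 8 unsaturated probes under most settings, by gene, with 1 colour per probe. Of the fits that leave out a single array, only that without pH 7.4 array 1 is drawn, and the looser threshold is not drawn. Stars have a limma adjusted p under 0.05. Only the CLDN2 probes fall below 0, at -0.33 and -0.40 with normexp on local backgrounds as given, and CGN A_11_P0000027517 is lowest, at 0.39, without pH 7.4 array 1.

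Other genes of the junctions were few among those with a name, and none passed. Of the 206 genes in 8 lists of junction proteins, their regulators, beta-catenin partners and targets, and epithelial transport, 32 could be named on the array and 25 were tested, each by its brightest unsaturated probe. Of these 18 were higher and 7 lower, with a median change of 0.16, against 339 higher and 238 lower, with a median of 0.067, over all 577 named genes tested. Limma called 0 of the 25 at an adjusted p under 0.05. At an unadjusted p under 0.05, 4 were higher and 0 lower, against 10.9% and 3.81% of all named genes.

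Of 5 plaque and scaffold genes of the tight junction 4 were higher and 1 lower, and limma called none. Claudin-3 (CLDN3), the only other gene of the strand list that was named, stood at 0.087 ± 0.24. The scaffold protein ZO-1 (TJP1), to which claudins and occludin bind, stood at -0.096 ± 0.24, and both of its probes were below 0. YBX3, a transcription factor that binds ZO-1, was at 0.16 ± 0.24. ARHGEF2, a RhoA activator that cingulin holds at the junction, was at 0.14 ± 0.29, and RAB8A, a GTPase of membrane traffic, at 0.42 ± 0.24. Limma adjusted p in these 5 ran from 0.519 to 0.924. Connexin 45 (GJC1), a gap junction channel, was at 0.30 ± 0.22, and the desmosomal cadherin DSG3 at -0.34 ± 0.35, on 6 of 12 arrays above background. No other adherens junction gene of its list was named.

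Of the 6 tested genes among junction regulators and actomyosin, 5 were higher and 1 lower, with a median change of 0.35, and limma called none. MYH9, the heavy chain of non-muscle myosin IIA, stood at 0.86 ± 0.23 (limma adjusted p = 0.200), with 1.09, 0.52 and 0.95 in the 3 biological replicates. Its other probes were at 0.75, saturated on 1 array, and at 0.24. ERBB2, a receptor tyrosine kinase, was at 0.53 ± 0.23, the GTPase RHOA at 0.36 ± 0.26, cytoplasmic actin ACTG1 at 0.33 ± 0.22, with its other unsaturated probe at 0.074, and the GTPase RAC1 at 0.20 ± 0.22. SNAI2, a repressor of epithelial junction genes, was at -0.41 ± 0.26.

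Known targets of beta-catenin divided. MMP9, a secreted gelatinase, had the largest estimate, 2.26 ± 0.30 on its brightest unsaturated probe (limma adjusted p = 0.0502). PPARD, a nuclear receptor, was at 0.54 ± 0.23 and the cyclin CCND1 at 0.47 ± 0.25, while BIRC5 and EDN1 stood at 0.26 ± 0.22 and 0.28 ± 0.31. The transcription factor MYC was at 0.0014 ± 0.25, the drug exporter ABCB1 at -0.16 ± 0.25, with its other probe at 0.58, and the growth factor VEGFA at -0.49 ± 0.24. By their brightest unsaturated probes 6 of 8 were higher and 2 lower, beside 339 of 577 named genes higher. The other probe of EDN1 stood at -0.032, so the sign of EDN1 and of ABCB1 depended on the probe. Among transport genes the sodium pump subunit ATP1B1 was at -0.69 ± 0.32, of which biological replicate 1 gave -1.70, carbonic anhydrase CA2 at -0.37 ± 0.23 and the glucose carrier SLC5A2 at 0.077 ± 0.25.

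**Figure D5:**
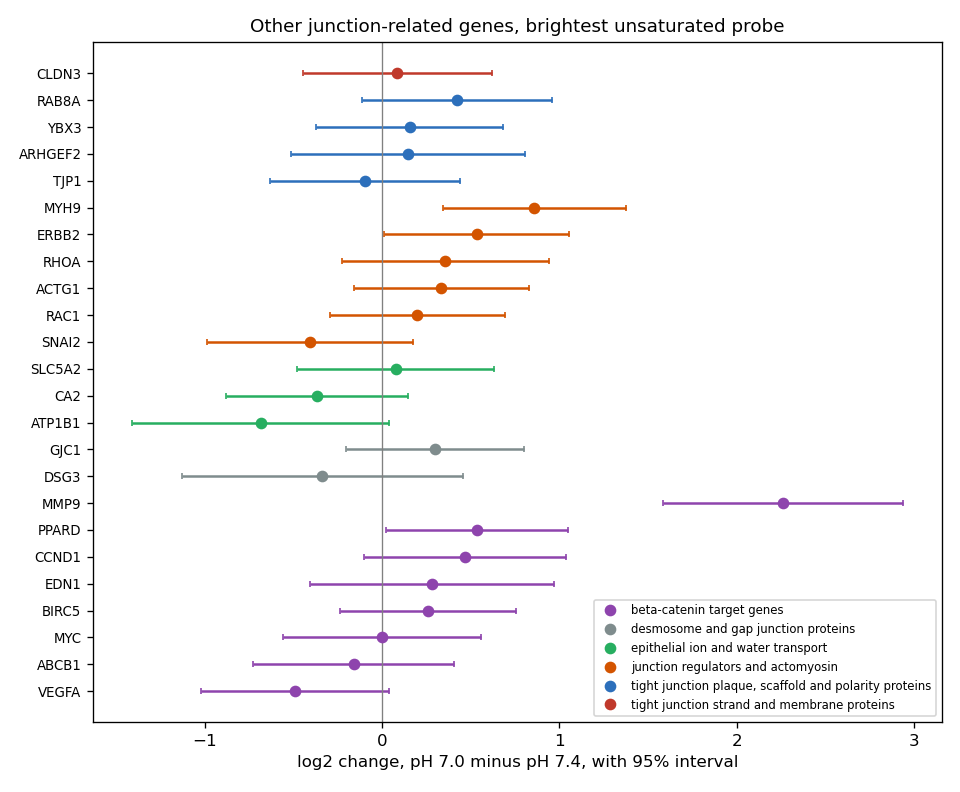
Log2 change, pH 7.0 minus pH 7.4, of 24 other genes of the lists by their brightest unsaturated probe, with 95% intervals, coloured by list. Most intervals include 0. Those of MMP9, MYH9, ERBB2 and PPARD lie above it before any adjustment for the number of probes tested.

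Over the 6 RNAs the members did not follow one pattern. By their brightest unsaturated probes CLDN2 and CGN were most alike, with a Pearson correlation of 0.919. CTNNB1 correlated with CLDN2 at 0.381 and with CGN at 0.173, and OCLN with CLDN2 at -0.322, with CGN at -0.585 and with CTNNB1 at 0.473. These values describe 6 RNAs that share 3 dates and 2 media. Among 576 other named genes, CLDN2 was most like SLC46A2 (0.948), then CGN, SELENOH (0.899) and RTBDN (0.872). OCLN was most like PDGFB (0.941), H19 (0.938), CDKN2B (0.917), PLEK (0.917) and CASP4 (0.904). CGN was most like GP1BA (0.940), CLDN2, APP (0.901), UNK (0.897) and SELENOP (0.875). CTNNB1 was most like GLUL, glutamine synthetase (0.98), then B4GALT4 (0.964), HMGN2 (0.955), COL7A1 (0.917) and CYP3A12 (0.908).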

How the data were processed

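Per the submitters' processing notes, the scans were read with Agilent Feature Extraction 10.7.3.1. The deposited scanner files hold Cy3 intensity per spot, per the file headers. The deposited value table holds log2 values. Its scale and centring are not stated by the authors, and it matched 75th-percentile scaling of the processed signals with each probe centred on its median (slopes 1.00). Its column medians were -0.23 to 0.23, and it holds 0 columns of other samples.

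Here control spots were left out, 128 outlier spots were set to missing, repeat spots were averaged as log2 values, the 75th percentile was subtracted, and the 2 arrays of an RNA were averaged. The change was fitted with limma 3.58.1 in R 4.3.3, two-sided, with the biological replicate as a block and Benjamini-Hochberg adjustment over all 27136 tested probes, 1 of which had a missing RNA. Each biological replicate pairs RNAs of 1 extraction date, per the study's design. Within biological replicates 1, 2 and 3 the 2 RNAs' deviations from their group means had correlations of 0.394, 0.637 and 0.807. Each also had a slide of its own, so extraction and slide cannot be told apart. The p-values refer to 3 extractions of 1 cell line, and that number limits the precision. Symbols came from RefSeq accessions without version, matched to a table of the dog assembly UU_Cfam_GSD_1.0 (1484 probes, 944 genes). Other probes of the 4 genes under other identifiers would not be counted.

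The members and gene lists were chosen with earlier results of these data known. Named were all member probes, from each list all tested genes where it held at most 8, and the 5 genes most like each member. From these, 1 list gene and 1 of the genes most like CLDN2 are not reported here. The markers named were all fibroblast, endothelial, leukocyte and tubule segment markers of the lists that could be named on the array. Alternatives covered pairing, duplicate arrays, background, scaling, the value table, filters, prior and threshold, and leaving out each biological replicate and array. Normexp used the median signal with an offset of 50. A planned search of promoter motifs was not run, and sequences were not used here. Plots used matplotlib 3.10.9 under python 3.11.15.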

Additional observations from a re-analysis of the deposited data

Results flagged for a closer look

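Among 18 groups of 6 arrays, 1 per member probe and medium, 2 held an array far from the other 5. Chance alone gives such a value in about 5% of groups of 6 independent values. The arrays here were duplicates of 3 RNAs and were shared between probes, so that rate does not hold for them. OCLN A_11_P050021 stood at 0.083 on pH 7.0 array 5, with the nearest of the others at -0.42 and the farthest at -0.49. CTNNB1 A_11_P195993 stood at 1.95 on the same array, with the others from 2.49 to 2.77. Both are the same array, and its duplicate, array 6, held the same RNA.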

How the results depend on the processing

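Of 221 recomputed changes of the 8 unsaturated probes, 213 kept their direction and stayed short of the threshold, 2 reversed and 6 passed. Settings of the pairing, the duplicate arrays, the filter on dim probes, the prior and the threshold leave each estimate as it is. The direction could not change in those, so the count overstates how far it was tried. The 2 that reversed were CLDN2 A_11_P050646 (-0.33) and A_11_P0000019812 (-0.40) with normexp on local backgrounds as given, and with 11 spots repaired, a setting added after seeing the data, both were above 0. Of the 6 that passed, CTNNB1 A_11_P071281 did so at 0.67 with the 12 arrays fitted with the RNA as a random block, CTNNB1 A_11_P195993 at 1.31 with probes above background on all 12 arrays and with an intensity trend. The other 3 passed without a biological replicate, and the cause was not tested. Leaving out single biological replicates or arrays gave ranges of 0.76 to 1.46 and 0.71 to 1.17 for the CLDN2 probes A_11_P050646 and A_11_P0000019812, 0.13 to 0.38 for OCLN, 0.12 to 0.37 and 0.39 to 1.10 for the CGN probes A_11_P050111 and A_11_P0000027517, and 0.60 to 0.74, 0.70 to 1.19 and 0.87 to 1.74 for the CTNNB1 probes A_11_P071281, A_11_P071276 and A_11_P195993. The largest of the last, 1.74, was without pH 7.4 array 2.

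Without the replicate block, limma called 0 probes higher and 0 lower, as with it, so no member had a call that could change. The unadjusted p of limma was then 0.104 and 0.214 on CLDN2 A_11_P050646 and A_11_P0000019812, and 0.069 on CGN A_11_P0000027517. With the block all of these were under 0.05. The unsaturated CTNNB1 probes stayed under 0.05 without it, at 0.013 to 0.046. Counts over all probes moved with other settings: 396 higher and 294 lower for 12 arrays with the RNA as a random block, 52 and 35 for arrays paired by title number (added after seeing the data), 10 and 4 with normexp, 17 and 7 with median scaling, 90 and 44 with probes above background on all 12 arrays, 85 and 50 with an intensity trend, and 48 and 23 at an adjusted p under 0.10. Leaving out 1 biological replicate or array gave 0 to 203 higher and 0 to 447 lower, with 203 and 74 without biological replicate 1 and 200 and 447 without biological replicate 2. The 12-array fit treats duplicate arrays as partly separate samples, so its counts rest on technical replicates too. The differences of duplicate arrays correlated between the media at 0.223, -0.265 and 0.728 in biological replicates 1 to 3.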
